A study of Mus musculus with 12 samples.

Results

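The circadian clock genes Arntl, Clock, Per1, Per2, Per3, Cry1, Nr1d1, Dbp, Bhlhe40 and Bhlhe41 (10 in all) were followed in mouse podocytes with and without exposure to fluid flow. They were taken by name from the deposited expression table, each as the brightest row annotated to that gene alone. This gave values for 8 of the 10 genes, with 1 row each, among 14860 genes with such a row. Per2 and Nr1d1 have no value here, because the rows that carry them are annotated to several genes.

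The cells were a conditionally immortalized mouse podocyte line (from Immortomouse, with the thermosensitive tsA58 T antigen). Podocytes are the epithelial cells wrapped around the glomerular capillaries, and this line models them in culture. All 4 groups were grown at 33 °C with γ-interferon at 10 units/ml in medium with 10% serum, differentiated at 37 °C without it, given new medium 24 h before the experiment and used on day 14. Sheared cells received 2 dynes per square centimetre (75 ml per minute) for 2 h and were taken when shear stopped (End), or after 2 h (Post-2hr) or 24 h (Post-24hr) of recovery in their original medium, which is 2, 4 and 26 h after shear began. Control cells shared the hood and incubator but had no shear, and the protocol also describes them as collected before shear. No control matches the later harvest hours and no time of day is given, so the effects of shear, of handling and of the hour of harvest cannot be told apart. Each group holds 3 arrays, numbered 1 to 3, and no label says that these were separate cultures. A p-value therefore reflects only the scatter of these samples, which could be technical.

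In the mammalian clock, CLOCK and ARNTL (BMAL1) form a heterodimer that binds E-box sequences and activates the Per and Cry genes, Nr1d1, Dbp, Bhlhe40 and Bhlhe41. PER and CRY proteins repress the heterodimer, BHLHE40 and BHLHE41 compete with it at E-boxes, and NR1D1 represses Arntl through ROR elements. DBP and its relatives TEF and HLF activate D-box genes, which NFIL3 represses. Per1 and Bhlhe40 are also known to respond acutely to serum, cAMP and other stimuli, and glomerular filtration follows a daily rhythm.

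Levels are log2 expression values (RMA, per the submitters' processing notes), so a difference of 1 is a doubling of signal. Array medians lay between 6.93 and 7.11. The 8 clock gene rows had mean levels between the 56.0 and 86.8 percentiles of all 23332 rows. The replicate 1 arrays stood apart from the others on the largest principal component (−53.2 to −26.7, against 3.00 to 34.5), which held 42.4% of the variance. Across groups, Bhlhe40 was 0.87 higher in replicate 1 than in replicates 2 and 3 on average, Cry1 0.56, Arntl 0.37, Clock 0.31 and Dbp 0.26, while Per1 (0.063), Bhlhe41 (0.021) and Per3 (−0.090) differed by less than 0.1. Changes are therefore also given within replicate 1 and within replicates 2 and 3. Podocyte markers were mixed: Actn4, Cd2ap and Podxl were bright, and Wt1, Nphs1 and Tcf21 had medians of 7.35, 6.59 and 5.98. Markers of other cells were mixed as well. All 5 endothelial markers had medians between 3.83 (Emcn) and 5.59 (Cdh5). Of 6 macrophage and leukocyte markers, Ptprc, Adgre1 and Itgam had medians of 3.97, 4.30 and 5.14, and Cd68, Cd14 and Csf1r had medians of 7.58, 7.91 and 8.09. Of the mesangial and smooth muscle markers, Pdgfrb and Acta2 were bright (10.96 and 13.78), and Des and Myh11 had medians of 5.83 and 6.04. Of the tubular ones Aqp1 was bright (12.93), and Slc12a1, Umod, Cdh1 and Slc34a1 had medians of 4.49, 5.73, 6.17 and 6.51. The 8 measured G2 and M phase markers summed to a log2 signal of 10.5 to 11.8 in Control, 10.7 to 11.9 at End, 10.2 to 11.9 at Post-2hr and 10.3 to 12.6 at Post-24hr. The spread within groups followed replicate 1, where Top2a was at 6.75 to 7.37 against 8.20 to 9.67 in replicates 2 and 3, and Mki67 at 4.85 to 5.50 against 6.18 to 8.21. Cd68 was at 9.33 to 9.91 in replicate 1 against 7.05 to 7.85, and Csf1r at 6.54 to 7.18 against 7.84 to 8.56. The part of these markers in the clock gene values was not tested.

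Differences from Control among the clock genes had their largest median absolute value at Post-2hr (0.41, against 0.16 at End and 0.14 at Post-24hr). At Post-2hr Bhlhe40, Arntl and Per1 were higher than in Control (1.33, 0.70 and 0.34), and Per3 and Dbp were lower (−0.48 and −0.78). The arrays of the 2 groups did not overlap in these genes, though the Per1 difference lay largely in replicate 1. At End, Bhlhe40 and Bhlhe41 were higher than in every Control array (1.37 and 0.40). At Post-24hr the mean differences from Control lay between −0.18 (Dbp) and 0.42 (Bhlhe40). Bhlhe41 was then higher than in every Control array (0.27), by a narrow margin in replicate 3. None of these differences passed the test over all rows. The RNA was of whole cultures, so fewer cells of a kind and less RNA per cell cannot be told apart.

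Counts of the 8 genes were as follows, with limma's moderated test, Benjamini-Hochberg adjustment over all 23332 rows and a threshold of 0.05. At End against Control 0 passed (0% of all rows passed), at Post-2hr against Control 0 (0.0171% of all rows) and at Post-24hr against Control 0 (0% of all rows). Between harvests 0 passed for Post-2hr minus End (0.0257%), 0 for Post-24hr minus Post-2hr (0%) and 0 for Post-24hr minus End (0%), and 0 in the F test for any difference among groups (0.00857%). An unmoderated linear model likewise passed 0 of the 8 in each comparison. With replicate 1 set apart as a term, 0 of the 8 passed in each comparison and in the F test. All rows then passed at 0%, 0.154% and 0% for End, Post-2hr and Post-24hr against Control, at 0.154% for Post-2hr minus End, 0.00857% for Post-24hr minus Post-2hr and 0.0514% for Post-24hr minus End, and at 0.03% in the F test. At an unadjusted p under 0.05 there were 2 of 8 at End, 4 at Post-2hr and 1 at Post-24hr against Control, beside 3.62%, 5.64% and 2.4% of all rows. The corresponding counts were 4 for Post-2hr minus End, 4 for Post-24hr minus Post-2hr and 1 for Post-24hr minus End, beside 6.24%, 5.71% and 5.77%.

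A simpler count asked in how many genes the 3 arrays of each group did not overlap. At End against Control these were Bhlhe40 and Bhlhe41, both higher, which is 2 of 8 beside 7.63% of all rows in either direction (4.69% higher, 2.94% lower). At Post-2hr against Control they were Bhlhe40, Arntl and Per1, higher, and Per3 and Dbp, lower, which is 5 of 8 beside 9.09% of all rows (4.08% higher, 5.01% lower). At Post-24hr against Control it was Bhlhe41, higher, which is 1 of 8 beside 5.61% (2.7% higher, 2.91% lower). For Post-2hr minus End, Per1 was higher and Per3, Dbp and Bhlhe41 lower, 4 of 8 beside 12% (4.1% higher, 7.86% lower). For Post-24hr minus Post-2hr, Per3 and Bhlhe41 were higher and Arntl lower, 3 of 8 beside 10.2% (5.68% higher, 4.55% lower). For Post-24hr minus End there were 0 beside 11.7% (4.86% higher, 6.84% lower). The median absolute difference of the 8 genes from Control was 0.16 at End, 0.41 at Post-2hr and 0.14 at Post-24hr, against 0.092, 0.12 and 0.086 over all rows. The signed medians were 0.12, 0.051 and 0.085, against 0.013, −0.023 and 0.0023. The genes were chosen with results of these arrays known, so these shares describe them and are not a test.

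**Figure D1:**
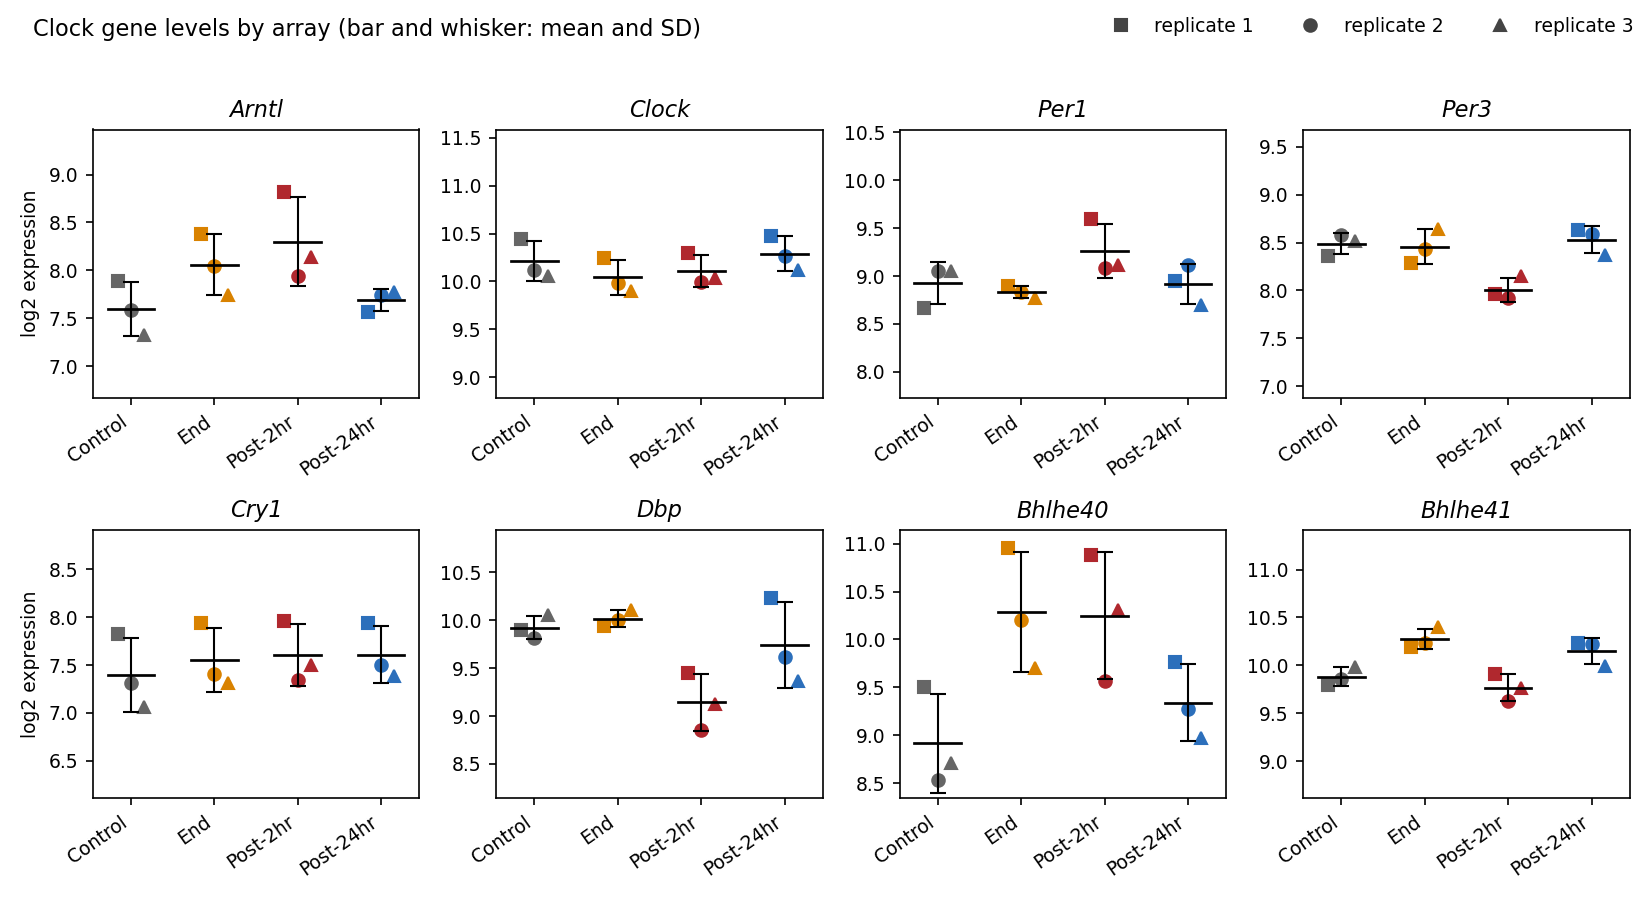
Log2 expression of the 8 measured clock genes (vertical axes, all of the same span in log2 units) in Control, End, Post-2hr and Post-24hr; squares, circles and triangles are replicates 1, 2 and 3, and black bars with whiskers are means ± SD (n = 3). Per3 and Dbp are lowest at Post-2hr, Bhlhe40 is high at End and Post-2hr, and the replicate 1 square is the highest symbol in every group for Clock, Cry1 and Bhlhe40.

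Promoter sequences are shown for the genes whose Post-2hr arrays did not overlap those of Control or of End, to place their known regulatory letters beside their values. Each window runs from 250 bases before to 50 bases after a start site (RefSeq, GRCm38.p6), 5′ to 3′ on the gene's strand. The windows are Arntl chr7:113207261-113207560 (plus strand), Per1 chr11:69098699-69098998 (plus), Per3 chr4:151044616-151044915 (minus), Dbp chr7:45704997-45705296 (plus) and Bhlhe41 chr6:145865371-145865670 (minus). Where a gene has several windows, the one with most matches is shown. The other Arntl window and the other Per1 window hold no match. Capitals mark matches on either strand to the E-box CACGTG, its variant CACGTT, the D-box TTATGNAA, the ROR element TAGGTCA or the cAMP response element TGACGTCA.
Arntl: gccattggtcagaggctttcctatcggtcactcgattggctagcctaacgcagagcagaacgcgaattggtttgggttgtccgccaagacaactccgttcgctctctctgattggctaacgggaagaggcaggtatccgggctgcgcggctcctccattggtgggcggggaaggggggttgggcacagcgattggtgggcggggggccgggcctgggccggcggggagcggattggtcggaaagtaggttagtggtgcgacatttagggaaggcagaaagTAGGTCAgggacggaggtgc
Per1: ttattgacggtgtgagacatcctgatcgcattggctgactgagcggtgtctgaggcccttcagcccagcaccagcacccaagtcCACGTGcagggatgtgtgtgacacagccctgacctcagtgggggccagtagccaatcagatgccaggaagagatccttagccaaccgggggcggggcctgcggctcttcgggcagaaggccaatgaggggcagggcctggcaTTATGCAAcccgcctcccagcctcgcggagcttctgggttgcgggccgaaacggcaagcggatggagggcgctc
Per3: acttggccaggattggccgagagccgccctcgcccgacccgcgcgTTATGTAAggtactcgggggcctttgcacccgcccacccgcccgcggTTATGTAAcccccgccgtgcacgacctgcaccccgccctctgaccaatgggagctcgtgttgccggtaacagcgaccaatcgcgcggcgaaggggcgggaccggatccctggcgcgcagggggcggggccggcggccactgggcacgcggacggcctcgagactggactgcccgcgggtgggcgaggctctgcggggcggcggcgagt
Dbp: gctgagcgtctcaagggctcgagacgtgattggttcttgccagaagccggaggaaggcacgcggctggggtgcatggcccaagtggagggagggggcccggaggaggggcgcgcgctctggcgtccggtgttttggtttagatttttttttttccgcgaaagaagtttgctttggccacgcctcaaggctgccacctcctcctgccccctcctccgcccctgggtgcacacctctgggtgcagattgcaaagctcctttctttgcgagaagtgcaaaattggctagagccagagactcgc
Bhlhe41: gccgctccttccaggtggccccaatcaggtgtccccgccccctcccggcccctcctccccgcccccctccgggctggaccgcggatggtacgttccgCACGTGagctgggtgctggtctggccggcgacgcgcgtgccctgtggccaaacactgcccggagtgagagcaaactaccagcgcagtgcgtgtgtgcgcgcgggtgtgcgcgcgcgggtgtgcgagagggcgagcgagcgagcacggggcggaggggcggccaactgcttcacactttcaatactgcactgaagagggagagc

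Per3 holds D-box letters at −205 and −158 and no E-box letters. Per1 holds an E-box at −166 and a D-box at −24, Bhlhe41 an E-box at −153, and Arntl a ROR element at position 31, where the start site is position 1. Dbp holds none of the 5 motifs in this window. Of 32851 RefSeq windows of 300 bases, 7.15% hold the E-box, 4.68% its variant, 3.38% the D-box, 2.61% the ROR element and 1.79% the cAMP response element. These shares are of single windows, whereas the Arntl and Per1 windows were picked by their matches. No matches overlapped each other in the sequences shown. A match is a description of the letters, not a binding site. Windows were found for 8 of the 10 genes, Per2 and Bhlhe40 being the others.

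Among the activators, Arntl, the partner of CLOCK, was highest at Post-2hr. Its levels were 7.89, 7.59 and 7.32 in Control replicates 1, 2 and 3 and 8.38, 8.04 and 7.75 at End. They were 8.82, 7.94 and 8.14 at Post-2hr and 7.56, 7.75 and 7.77 at Post-24hr. Every Post-2hr array was above every Control and every Post-24hr array, and the End arrays overlapped both Control and Post-2hr. Matched by replicate number, End minus Control was 0.50, 0.45 and 0.42 in replicates 1, 2 and 3. Post-24hr minus Control was −0.33, 0.16 and 0.45 in the same order. Post-2hr minus Control was 0.70 ± 0.24 (SE), 1.63-fold, with a 95% interval of 0.17 to 1.23 (limma adjusted p = 0.714). It was 0.93 within replicate 1 and 0.58 within replicates 2 and 3. Post-24hr minus Post-2hr was −0.61 ± 0.24 (adjusted p = 0.807), of which replicate 1 gave −1.26 and replicates 2 and 3 gave −0.28. The order of means was Post-2hr, End, Post-24hr and Control, and the arrays of each neighbouring pair in it overlapped.

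Clock, which encodes the other partner, had means within 0.24 of each other across the groups. Its levels ran from 10.06 to 10.45 in Control, 9.90 to 10.25 at End, 10.00 to 10.30 at Post-2hr and 10.11 to 10.48 at Post-24hr, with the replicate 1 array highest in each. All groups overlapped. The 95% intervals of the difference from Control were −0.50 to 0.17 at End, −0.43 to 0.23 at Post-2hr and −0.25 to 0.41 at Post-24hr. With replicates matched by number, Post-24hr was above End by 0.23, 0.28 and 0.22 (limma adjusted p = 0.99 without matching). Matched in the same way, End minus Control was −0.20, −0.13 and −0.16. Post-2hr minus Control was −0.15, −0.12 and −0.028, and Post-24hr minus Control was 0.031, 0.15 and 0.055.

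Of the Period genes, which encode repressors of the heterodimer, Per3 was lowest at Post-2hr. It read 8.36, 8.58 and 8.52 in Control, 8.29, 8.43 and 8.65 at End, 7.96, 7.92 and 8.15 at Post-2hr and 8.63, 8.59 and 8.37 at Post-24hr. All 3 Post-2hr arrays were below all 9 others, and the other 3 groups overlapped one another. Post-2hr minus Control was −0.48 ± 0.12 (SE), 1.39-fold lower, with an interval of −0.75 to −0.21 (limma adjusted p = 0.536). The difference was −0.40 in replicate 1 and −0.52 in replicates 2 and 3. Post-24hr was 0.52 ± 0.12 above Post-2hr (adjusted p = 0.543). The Post-24hr mean of 8.53 ± 0.14 (SD, n = 3) lay close to the Control mean of 8.49 ± 0.11, with an interval for the difference of −0.23 to 0.32. Matched by replicate number, that difference was 0.27, 0.010 and −0.15 in replicates 1, 2 and 3, so that its sign varied.

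Per1, a Period gene known to respond acutely, showed a different profile, and its Post-2hr difference from Control lay largely in replicate 1. There the Control array was the lowest of its group (8.67) and the Post-2hr array the highest of its group (9.59). Its levels were 8.67, 9.05 and 9.05 in Control and 8.90, 8.83 and 8.77 at End. They were 9.59, 9.09 and 9.11 at Post-2hr and 8.94, 9.11 and 8.69 at Post-24hr. The Post-2hr arrays lay above all Control and End arrays, by a narrow margin in replicates 2 and 3. Post-2hr minus Control was 0.34 ± 0.17 (SE; limma adjusted p = 0.902), with 0.92 in replicate 1 and 0.049 in replicates 2 and 3. Against End the difference was 0.43 ± 0.17 (adjusted p = 0.718), with 0.69 in replicate 1 and 0.30 in replicates 2 and 3.

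Cry1, which encodes the cryptochrome that acts with PER, was spread more between replicates than between groups. It ran from 7.06 to 7.82 in Control, 7.31 to 7.94 at End, 7.34 to 7.96 at Post-2hr and 7.38 to 7.94 at Post-24hr, and all groups overlapped. Replicate 1 gave the highest level in every group. The largest mean difference from Control was 0.21 ± 0.25 at Post-24hr, and each of the 3 intervals against Control lay between −0.41 and 0.77. Matched by replicate number in comparisons that share the Control arrays, the difference from Control was above 0 in all 3 pairs at each harvest. At End, Post-2hr and Post-24hr it was 0.12, 0.14 and 0.12 within replicate 1. Within replicates 2 and 3 it was 0.17, 0.23 and 0.26.

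Dbp, a D-box activator and a direct output of the heterodimer, had the second widest span of group means among the clock genes after Bhlhe40. Its levels were 9.89, 9.82 and 10.06 in Control and 9.94, 10.00 and 10.11 at End. They were 9.45, 8.85 and 9.12 at Post-2hr and 10.24, 9.62 and 9.37 at Post-24hr. Every Post-2hr array was below every Control and End array, and the Post-24hr arrays spread from below Post-2hr replicate 1 to above the highest End array. Post-2hr minus Control was −0.78 ± 0.21 (SE), 1.72-fold lower, with an interval of −1.25 to −0.31 (limma adjusted p = 0.581). The difference was −0.44 in replicate 1 and −0.95 in replicates 2 and 3. Post-2hr minus End was −0.87 ± 0.21, 1.83-fold lower (adjusted p = 0.435). Post-24hr minus Control was −0.18 ± 0.21, with 0.34 in replicate 1 and −0.44 in replicates 2 and 3, so that the sign differed between these sets of arrays.

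Bhlhe40 (DEC1), an E-box repressor, had the largest differences from Control of the 8 genes. It read 9.51, 8.53 and 8.71 in Control and 10.95, 10.20 and 9.70 at End. It read 10.88, 9.56 and 10.31 at Post-2hr and 9.77, 9.28 and 8.97 at Post-24hr. All End and Post-2hr arrays were above all Control arrays, and the Post-24hr arrays overlapped every other group. End minus Control was 1.37 ± 0.41 (SE), 2.59-fold, with an interval of 0.45 to 2.29 (limma adjusted p = 1). Post-2hr minus Control was 1.33 ± 0.41, 2.52-fold, with an interval of 0.42 to 2.25 (adjusted p = 0.679). The End difference was 1.45 within replicate 1 and 1.33 within replicates 2 and 3, and the Post-2hr difference was 1.38 and 1.31. Matched by replicate number in comparisons that share the Control arrays, the difference was above 0 in all 3 pairs at both harvests. With replicate 1 set apart as a term in the fit, the adjusted p was 0.194 at End and 0.0524 at Post-2hr. Post-24hr minus End was −0.95 ± 0.41 (adjusted p = 0.857).

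Bhlhe41 (DEC2), the paralog of Bhlhe40, was high at End and at Post-24hr and low at Post-2hr. Its levels were 9.79, 9.86 and 9.99 in Control and 10.19, 10.24 and 10.40 at End. They were 9.91, 9.63 and 9.77 at Post-2hr and 10.23, 10.22 and 9.99 at Post-24hr. The Post-2hr arrays were below all End and Post-24hr arrays and overlapped Control, and Post-24hr replicate 3 was within 0.0014 of Control replicate 3. End minus Control was 0.40 ± 0.11 (SE; limma adjusted p = 1), with 0.40, 0.38 and 0.41 in replicates 1, 2 and 3. Post-2hr minus End was −0.51 ± 0.11, 1.42-fold lower, with an interval of −0.75 to −0.26 (adjusted p = 0.326). That is the lowest adjusted p of the 8 genes over the 6 comparisons. Post-24hr minus Post-2hr was 0.38 ± 0.11 (adjusted p = 0.658). At Post-2hr the 2 paralogs thus stood at 1.33 and −0.11 from Control, and the difference between them was not tested.

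**Figure D2:**
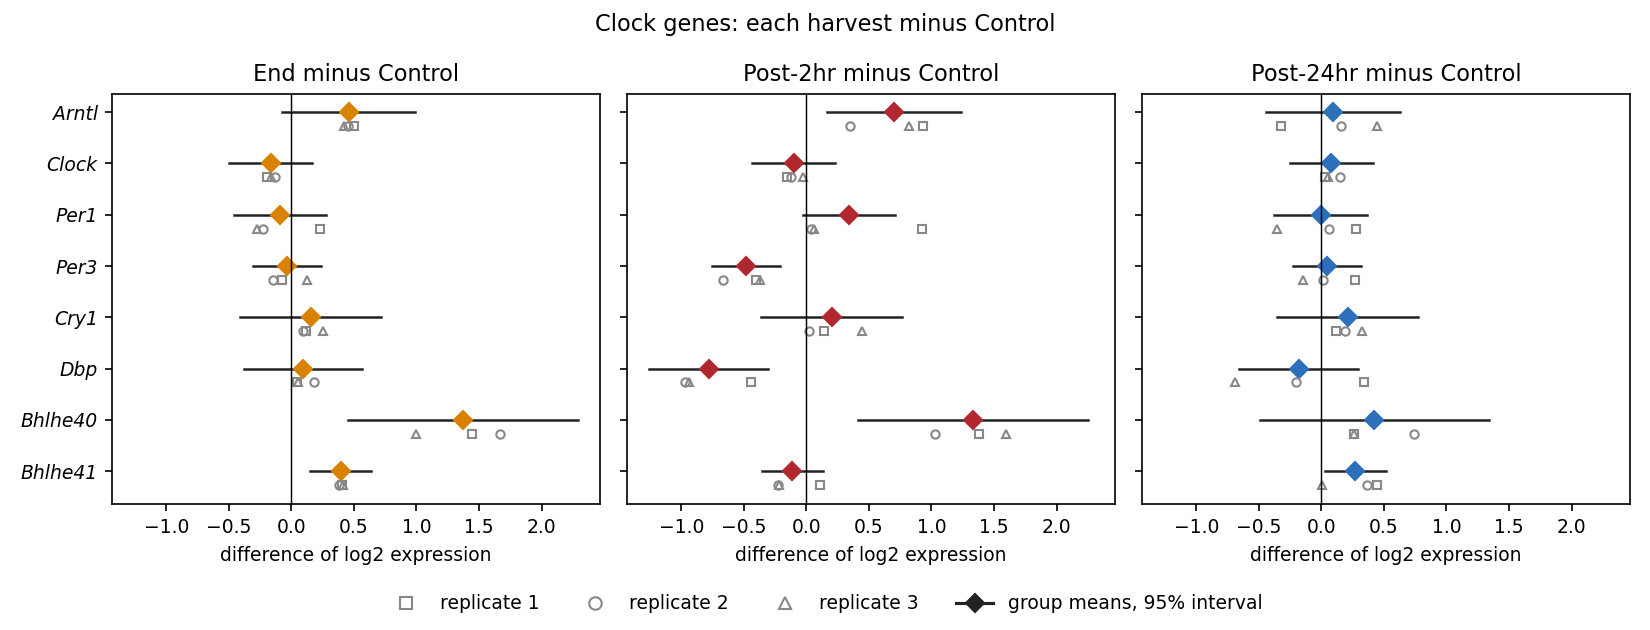
Difference of log2 expression from Control (horizontal axes) for the 8 clock genes at End, Post-2hr and Post-24hr; diamonds are differences of group means with 95% intervals from limma, and open symbols are the differences within replicates 1, 2 and 3. Bhlhe40 is near 1.4 at End and 1.3 at Post-2hr, Per3 and Dbp lie below 0 in all 3 replicates at Post-2hr, and Per1 at Post-2hr is carried by replicate 1 (0.92).

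The harvests End and Post-24hr are 24 h apart by the protocol, and Post-2hr follows End by 2 h. Post-24hr minus End was −0.95 for Bhlhe40, −0.37 for Arntl, −0.28 for Dbp and −0.13 for Bhlhe41. It was 0.057 for Cry1, 0.076 for Per3, 0.084 for Per1 and 0.24 for Clock. In all 8 genes the arrays of these groups overlapped, where 11.7% of all rows had no overlap. Matched by replicate number, Bhlhe40 differed by −1.18, −0.93 and −0.73 in replicates 1, 2 and 3. Clock (0.23, 0.28 and 0.22) and Cry1 (0.0030, 0.098 and 0.071) were above 0 in each pair. The matched differences of the other genes varied in sign. In Per3, Dbp and Bhlhe41, Post-2hr was below End by 0.45, 0.87 and 0.51 and below Post-24hr by 0.52, 0.60 and 0.38, and these comparisons share the Post-2hr arrays.

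**Figure D3:**
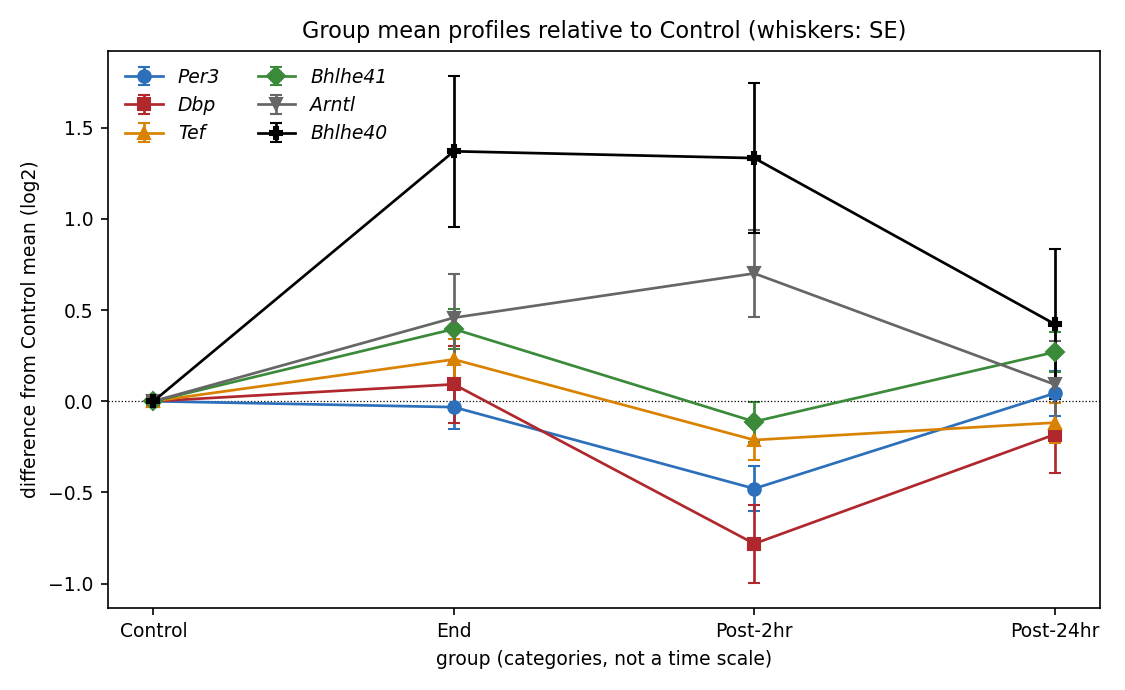
Difference of group means from the Control mean in log2 units (vertical axis) for Per3, Dbp, Tef, Bhlhe41, Arntl and Bhlhe40 across the 4 groups, which are categories and not a time scale; whiskers are SEs from limma. At Post-2hr Per3, Dbp, Tef and Bhlhe41 lie below 0 (−0.48, −0.78, −0.21 and −0.11) while Arntl and Bhlhe40 lie above it (0.70 and 1.33). The Post-2hr arrays of Tef and Bhlhe41 overlapped Control, and both genes were 0.11 above it in replicate 1. Not drawn are the clock genes Clock (−0.10), Per1 (0.34) and Cry1 (0.20) and the D-box factors Hlf (0.17) and Nfil3 (0.43).

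Other genes of the pathway were counted in 6 lists by role, in which 40 of 51 genes had a row. None passed over all rows in any of the 6 comparisons or in the F test (0 higher and 0 lower of 40). Of the 4 measured activator paralogs and ROR genes, 2 had higher means than Control at End, 1 at Post-2hr and 1 at Post-24hr. Rora and Rorb, nuclear receptors that activate Arntl through ROR elements, differed from Control by −0.25 ± 0.23 and 0.11 ± 0.082 (SE) at Post-2hr, and Rorb was dim, with levels of 3.99 to 4.32. Of the repressor side, Nr1d2 (REV-ERB beta) and Timeless were measured. Nr1d2 was at 10.32 ± 0.08 in Control, 10.57 ± 0.16 at End, 10.24 ± 0.39 at Post-2hr and 10.08 ± 0.20 at Post-24hr (SD, n = 3). Its End arrays were above all Post-24hr arrays, a difference of −0.49 ± 0.18 for Post-24hr minus End (limma adjusted p = 0.769). Timeless differed from Control by 0.11, −0.13 and −0.12 at the successive harvests.

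All 3 D-box factors were measured. Tef, a relative of Dbp, was at 9.56 ± 0.17 in Control, 9.79 ± 0.11 at End, 9.35 ± 0.12 at Post-2hr and 9.45 ± 0.05 at Post-24hr (SD, n = 3). Every Post-2hr array was below every End array, by −0.44 ± 0.11 (SE; limma adjusted p = 0.457), and the matched differences were −0.25, −0.50 and −0.58. Post-2hr overlapped Control, with 0.11 in replicate 1 and −0.37 in each of replicates 2 and 3. Hlf differed from Control by 0.18, 0.17 and 0.017 at the 3 harvests, with overlap throughout. Nfil3, the D-box repressor, was named as the remaining list member after its values were seen. It differed from Control by 0.43 ± 0.46 (SE) at Post-2hr, with an interval of −0.59 to 1.45 (limma adjusted p = 0.981) and overlapping arrays. The matched differences were 0.61, 0.098 and 0.58 in replicates 1, 2 and 3.

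Kinases, ubiquitin ligases and cofactors that act on clock proteins had 12 measured genes, of which 7 had higher means than Control at End, 3 at Post-2hr and 7 at Post-24hr, with medians of 0.021, −0.071 and 0.027. Sirt1, a deacetylase that acts on clock proteins, was lower at Post-24hr than at End by −0.76 ± 0.25 (SE; limma adjusted p = 0.706), with −1.29 in replicate 1 and −0.48 and −0.51 in replicates 2 and 3. Fbxw11, a ligase subunit that acts on PER, had differences from Control of −0.13, −0.057 and 0.057. Among 10 measured input genes, 6 had higher means than Control at End, 5 at Post-2hr and 3 at Post-24hr. Creb1, the cAMP-responsive factor, was 0.38 ± 0.12 higher at Post-24hr than at End (adjusted p = 0.7), and its coactivator Crtc1 differed by −0.37 ± 0.11 in the same comparison (adjusted p = 0.668).

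Of 9 measured output genes, all had higher means than Control at End (median 0.19), 4 had at Post-2hr and 4 at Post-24hr, where over all rows 54.2%, 44.7% and 50.7% of means were higher. Cirbp, a cold-inducible RNA-binding protein with a daily rhythm, was at 9.36 ± 0.24 in Control, 9.62 ± 0.14 at End, 9.36 ± 0.07 at Post-2hr and 8.87 ± 0.14 at Post-24hr (SD, n = 3). Each Post-24hr array was below each array of the other 3 groups. Post-24hr minus End was −0.75 ± 0.13 (SE; limma adjusted p = 0.222), and it was −0.78, −0.81 and −0.66 in replicates 1, 2 and 3. Fkbp5, a glucocorticoid-induced cochaperone, was at 7.41 ± 0.25 in Control, 7.97 ± 0.26 at End, 7.93 ± 0.33 at Post-2hr and 7.24 ± 0.12 at Post-24hr. Its End minus Control difference was 0.56 ± 0.19 (adjusted p = 1), with 0.58, 0.55 and 0.55 in the 3 replicates.

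**Figure D4:**
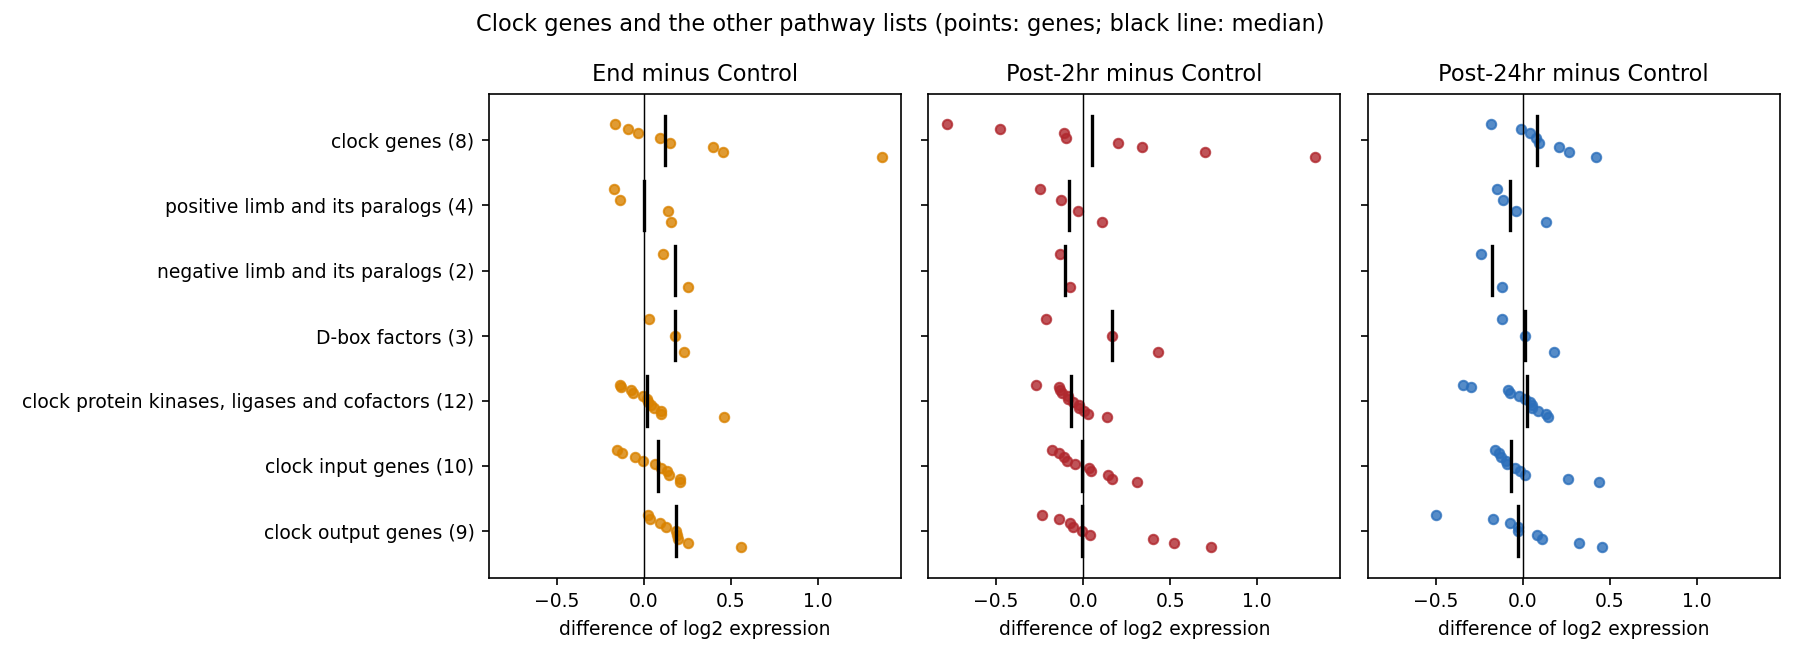
Difference of log2 expression from Control (horizontal axes) for the 8 clock genes and the 40 measured genes of the 6 other lists at End, Post-2hr and Post-24hr; each point is a gene, black lines are list medians, and the number of measured genes is in parentheses. The clock genes span −0.78 to 1.33 at Post-2hr, and all 9 output genes lie above 0 at End.

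Likeness to the clock genes with the widest spans, Bhlhe40 and Dbp, was measured over the 12 arrays as the root mean square difference of log2 values, each gene being centred within replicate number. Of 14860 genes, the nearest to Bhlhe40 were Vasn (0.26), Ier3 (0.27) and Tlr2 (0.30), where Bhlhe40 itself had a root mean square deviation of 0.62. Their differences from Control at End and Post-2hr were 0.90 and 0.93 for Vasn, 1.04 and 1.15 for Ier3, and 0.74 and 0.90 for Tlr2. The nearest to Dbp, whose own deviation was 0.39, were Fam53b (0.13), Sh3rf2 (0.13) and Gm5617 (0.14). At Post-2hr these differed from Control by −0.65, −0.65 and −0.59. The centring treats arrays of 1 number as a set, which the labels do not establish, and distances without it were not computed. The distances are descriptions, with no test.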

How the data were processed

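Expression was measured on Affymetrix Mouse Exon 1.0 ST arrays, with the signals of a gene's exon probes combined, per the labels' protocols. The authors deposited log2 values for which the submitters' processing notes name RMA and Partek, with neither versions nor settings. No source used here gives the genome build, and no detection calls were used. Of its 23332 rows (12 arrays, 0 values missing), 14996 have 1 gene symbol in the platform annotation, 1019 have several and 7317 are unnamed here. The number of arrays limits the precision.

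Group means were fitted row by row to the 12 arrays together (limma 3.58.1 in R 4.3.3; 8 residual and 2.16 prior degrees of freedom), without replicate number as a term. The 6 comparisons and an F test were adjusted by Benjamini-Hochberg over all rows, with a threshold of 0.05, and the fits were tested on simulated data. The clock genes, the lists and the tests were chosen with earlier results of these data known. All clock genes were named, with each gene of the other lists that passed and the 2 of each list with the smallest F test p. The alternatives were replicate number as a block, replicate 1 set apart, replicates 2 and 3 only, median centring and quantile normalization. Others were a filter at the 25th percentile of mean level, an intensity trend, no variance moderation and only rows of 1 symbol. The last were only the groups compared, the mean of a gene's rows, and each array left out. Each measured clock gene has 1 row, so the mean of a gene's rows leaves its values unchanged.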

Additional observations from a re-analysis of the deposited data

How the results depend on the processing

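None of the 8 clock genes passed in any of the 6 comparisons or the F test under any alternative run (0 in each), where replicates 2 and 3 only and the fits of only the groups compared have few residual degrees of freedom. The lowest adjusted p was 0.0524, for Bhlhe40 at Post-2hr against Control with replicate 1 set apart, and over 22 alternatives that gene's adjusted p ran up to 0.999. With the replicate block it was 0.0846 and 0 clock genes passed, while all rows passing went from 4 to 38 for Post-2hr minus Control, from 0 to 5 for Post-24hr minus Post-2hr and from 0 to 2 for Post-24hr minus End. The labels do not say that the numbers pair the samples, so the main fit has no such term. Deviations of same-numbered arrays were nevertheless correlated, at 0.029 to 0.72, with 17 of 18 correlations over 0.1. The SE of End minus Control was 0.41 for Bhlhe40 and 0.25 for Cry1, against 0.21 and 0.085 with the block. For Per1 it was 0.166, against 0.171 with the block. Setting replicate 1 apart gave 36, 2 and 12 rows in these comparisons, and 36 in place of 6 for Post-2hr minus End. Signs turned for some differences, none of which passed the test. On replicates 2 and 3 only, Per3 was at −0.070 for Post-24hr minus Control and −0.060 for Post-24hr minus End. Median centring and quantile normalization gave 0.012 and 0.017 for Bhlhe40, Post-2hr minus End, and −0.054 and −0.081 for Cry1, Post-24hr minus Post-2hr. With 1 array left out, ranges that crossed 0 were −0.13 to 0.052 for Per3 and −0.040 to 0.37 for Cry1 (End minus Control), −0.19 to 0.019 for Clock (Post-2hr minus Control), and, for Post-24hr minus Control, −0.046 to 0.23 for Arntl, −0.017 to 0.20 for Clock, −0.13 to 0.10 for Per1, −0.019 to 0.13 for Per3 and −0.43 to 0.0033 for Dbp. For Post-2hr minus End they were −0.016 to 0.42 for Arntl, −0.029 to 0.17 for Clock, −0.13 to 0.24 for Cry1 and −0.35 to 0.31 for Bhlhe40. For Post-24hr minus Post-2hr Cry1 ran from −0.16 to 0.19, and for Post-24hr minus End Per1 ran from −0.014 to 0.20, Per3 from −0.0085 to 0.17 and Cry1 from −0.11 to 0.25. The cause of these shifts was not tested.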

Other observations

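Noct (nocturnin), a deadenylase-family gene with a strong daily rhythm in many tissues, had the largest Post-2hr difference from Control in the other lists and was chosen after its values were seen. It was at 7.69, 8.58 and 8.45 in Control, 8.23, 8.78 and 8.30 at End, 8.71, 9.05 and 9.18 at Post-2hr and 8.60, 8.80 and 8.69 at Post-24hr. Every Post-2hr and every Post-24hr array was above every Control array. Post-2hr minus Control was 0.74 ± 0.23 (SE; limma adjusted p = 0.692), with 1.01, 0.47 and 0.73 in replicates 1, 2 and 3.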
